A study of Mus musculus with 10 samples.

Results

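The mature miRNAs mmu-miR-132-3p, mmu-miR-212-3p and mmu-miR-212-5p (below without the mouse prefix) are made from a shared locus. They are described here in hearts of mice labelled CITED4 knockout and of floxed controls. These 3 were taken by name from deposited tables of 1139 mature mouse miRNAs. All 3 passed the filter on low counts, which kept 457 miRNAs. The remaining arm of the locus, miR-132-5p, is given beside them because it shares a hairpin with miR-132-3p. Small RNA was sequenced from frozen heart tissue of male C57Bl6N mice, with 5 libraries of CITED4 knockouts and 5 of floxed controls. In the controls the gene carries recombination sites but was not deleted. In both genotypes the hearts had been under pressure overload for 1 week, imposed by transverse aortic constriction. The sources used here do not give the Cre line, the cells in which CITED4 was deleted, the age of the mice or whether each library is 1 animal. The p-values therefore speak of the spread among these libraries, part of which may be technical. No unoperated heart is part of the comparison, so the response of these miRNAs to load was not analysed here. A miRNA table cannot check the CITED4 transcript, so the genotypes are those of the labels.

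miR-212 and miR-132 are processed from 1 primary transcript that is known in neurons to be switched on by the transcription factor CREB. In mouse heart the pair is known to promote growth of cardiomyocytes and to repress Foxo3, a transcription factor that restrains hypertrophy and promotes autophagy. CITED4, a co-regulator of transcription, is known to be raised by exercise in mouse heart. A miRNA hairpin gives a 5p and a 3p arm, and an arm finds its target messenger RNAs mainly through its seed, bases 2 to 8.

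The mature sequences are shown because 2 of them share a seed, in capitals, and a shared seed is known to give overlapping targets, while the 5p arms carry seeds of their own. The sequences are those of RefSeq on GRCm38.p6, on the plus strand of chromosome 11.
miR-132-3p: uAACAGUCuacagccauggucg
miR-212-3p: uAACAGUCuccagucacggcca
miR-212-5p: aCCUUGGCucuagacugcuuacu
miR-132-5p: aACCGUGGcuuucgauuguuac
miR-132-3p and miR-212-3p are each 22 bases long and identical at 17 of them. From miR-132-3p to miR-212-3p, counted from 1 at the 5′ end, they differ by A10C, C14U, U17C, U20C and G22A, all outside the seed. Among 1679 mature mouse miRNAs of RefSeq, no other had the seed AACAGUC, and none shared the seed of miR-212-5p or of miR-132-5p. Of the 1139 deposited miRNAs, 951 matched a RefSeq mature miRNA by name. The counts of the 3 members were not identical to those of any other miRNA in the table.

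The hairpins are shown with their mature arms in capitals.
miR-212 hairpin: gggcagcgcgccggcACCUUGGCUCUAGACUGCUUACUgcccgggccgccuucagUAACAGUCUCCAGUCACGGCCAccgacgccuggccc
miR-132 hairpin: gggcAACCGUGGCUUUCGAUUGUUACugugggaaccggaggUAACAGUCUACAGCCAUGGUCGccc
The miR-212 hairpin lies at chr11:75173388-75173478 and the miR-132 hairpin at chr11:75173682-75173747, 203 bases further on in the direction of transcription. In GENCODE release M21 on the same assembly, both lie in intron 1 of the noncoding transcript 1700016P03Rik, whose gene runs from 75172560 to 75177633 on the same strand. The nearest protein-coding genes on either side in RefSeq were Hic1 and Ovca2.

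**Figure D1:**
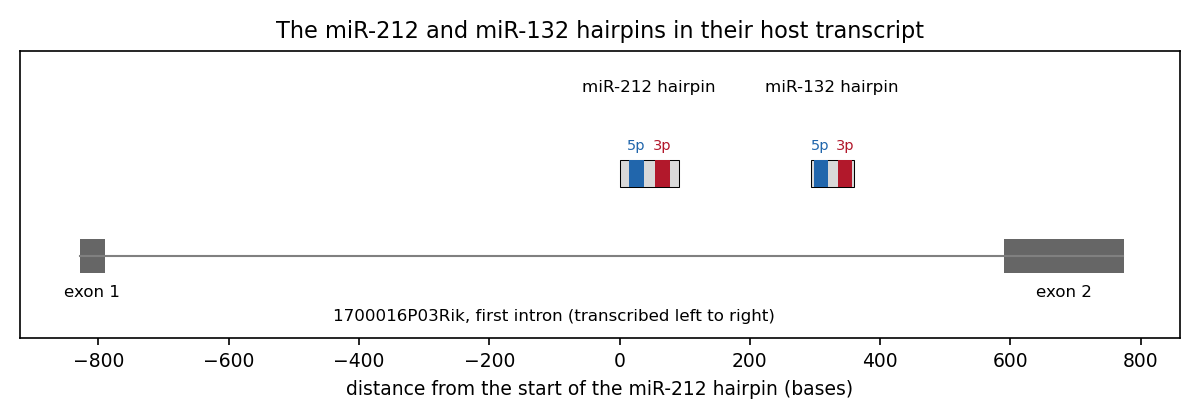
Map to scale of the first intron of 1700016P03Rik, with distance from the start of the miR-212 hairpin in bases on the horizontal axis. Grey bars on the line are exons 1 and 2 of the host, the boxes above are the hairpins, and blue and red mark the 5p and 3p arms; the hairpins stand 203 bases apart.

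The libraries held between 8909932 and 18369483 counts in knockouts and between 7526091 and 11608900 in controls. The muscle miRNA miR-1a-3p was the most abundant marker, at 299884 ± 77127 CPM in knockouts and 351201 ± 122202 CPM in controls (SD, n = 5 each). CPM is a count scaled to its library's total after a TMM factor, which corrects for a few miRNAs taking a large share and ran from 0.905 to 1.22 in knockouts and from 0.79 to 1.14 in controls. Summed markers of cardiomyocytes (6 of 6 measured) ran from 220821 to 387070 CPM in knockouts and from 242897 to 504512 CPM in controls. Summed fibroblast markers (4 of 4 measured) ran from 52486 to 132695 CPM in knockouts and from 38596 to 108877 CPM in controls. The cardiomyocyte sum was mostly miR-1a-3p and the fibroblast sum mostly miR-21a-5p, so these sums say little of the other markers. The part of cell composition in the values below was not tested. In RNA of heart tissue, fewer cells of a type and less of a miRNA per cell cannot be told apart.

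mmu-miR-132-3p was the most abundant arm of the locus. It was at 106, 117, 88.5, 106 and 93.5 CPM in knockout replicates 1 to 5, against 104, 93.2, 67.7, 109 and 118 CPM in control replicates 1 to 5. The groups overlapped across most of their range, and control replicate 3 was the lowest of all 10. The mean was 102 ± 11.2 CPM in knockouts and 98.5 ± 19.5 CPM in controls (SD, n = 5 each). These levels rested on 1114 to 1706 counts per library in knockouts and 579 to 1198 in controls. The libraries of a genotype varied by more than counting error. The coefficient of variation between them was 11% in knockouts and 19.8% in controls, where counting alone would give 2.76% and 3.36%. Its log2 fold change, knockout over control, was 0.05 ± 0.16 (SE), with a 95% interval from -0.30 to 0.40, or 0.814-fold to 1.32-fold, and it did not pass edgeR's quasi-likelihood test (adjusted p = 0.88). The interval allows a difference of that size in either direction. The sign turned without control replicate 3 (log2 fold change -0.06) or without knockout replicate 2 (-0.0014).

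mmu-miR-212-3p, the arm with the same seed, had a lower mean in knockouts. It was at 29.8, 31.0, 26.3, 34.0 and 37.4 CPM in knockout replicates 1 to 5, against 36.2, 36.5, 42.1, 39.0 and 45.2 CPM in control replicates 1 to 5. Of the 5 knockout libraries, 4 lay below every control, while knockout replicate 5 lay above control replicates 1 and 2. The mean was 31.7 ± 4.2 CPM in knockouts and 39.8 ± 3.84 CPM in controls (SD, n = 5 each), from 316 to 682 and 316 to 418 counts per library. In the deposited normalized values it ran from 286 to 413 in knockouts and from 388 to 496 in controls. Its log2 fold change was -0.33 ± 0.15 (SE), or 0.797-fold, with a 95% interval from -0.64 to -0.01. The unadjusted p was 0.043 in edgeR's test and 0.024 in an exact two-sided permutation test of log2 CPM. Adjusted over 457 miRNAs these were 0.64 in edgeR and 0.61 by permutation, so the difference did not pass the threshold of 0.05. Each of the 5 knockout libraries lay under the control mean. The mean stayed lower in knockouts without any 1 of the 10 libraries, with log2 fold changes from -0.39 to -0.24. The unadjusted p in edgeR then ran from 0.027 to 0.14, and it was under 0.05 only without knockout replicate 5 (0.027) or control replicate 1 (0.041). With library totals in place of TMM factors the log2 fold change was -0.21 (unadjusted p = 0.31 in edgeR), and the median of all miRNAs was then 0.14 in place of 0.03. The unadjusted p in edgeR was 0.14 without a filter on low counts and 0.053 with the replicate number as a block. Relative to that median the values were -0.35 with library totals and -0.36 with TMM factors.

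mmu-miR-212-5p, the less abundant arm of the miR-212 hairpin, had the lowest mean of the 4 arms in both genotypes. It was at 3.55, 4.03, 3.35, 4.75 and 4.28 CPM in knockout replicates 1 to 5, against 4.25, 1.93, 4.80, 4.44 and 3.15 CPM in control replicates 1 to 5. The knockout libraries lay within the control range, whose low end was set by control replicates 2 and 5. The mean was 3.99 ± 0.56 CPM in knockouts and 3.71 ± 1.17 CPM in controls (SD, n = 5 each). This member had too few reads for a small difference to be seen. Counts per library were 41 to 78 in knockouts and 22 to 49 in controls. The coefficient of variation was 14.1% in knockouts, the size that counting alone would give (14.1%), and 31.5% in controls, where counting alone would give 17.7%. For control replicate 2, the library with the fewest miR-212-5p counts, the exact 95% Poisson interval was 1.21 to 2.93 CPM. That interval covers counting error only. The log2 fold change was 0.11 ± 0.27 (SE), with a 95% interval from -0.49 to 0.70, the widest of the 3 members (edgeR adjusted p = 0.86). The sign turned without control replicate 2 (log2 fold change -0.05).

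**Figure D2:**
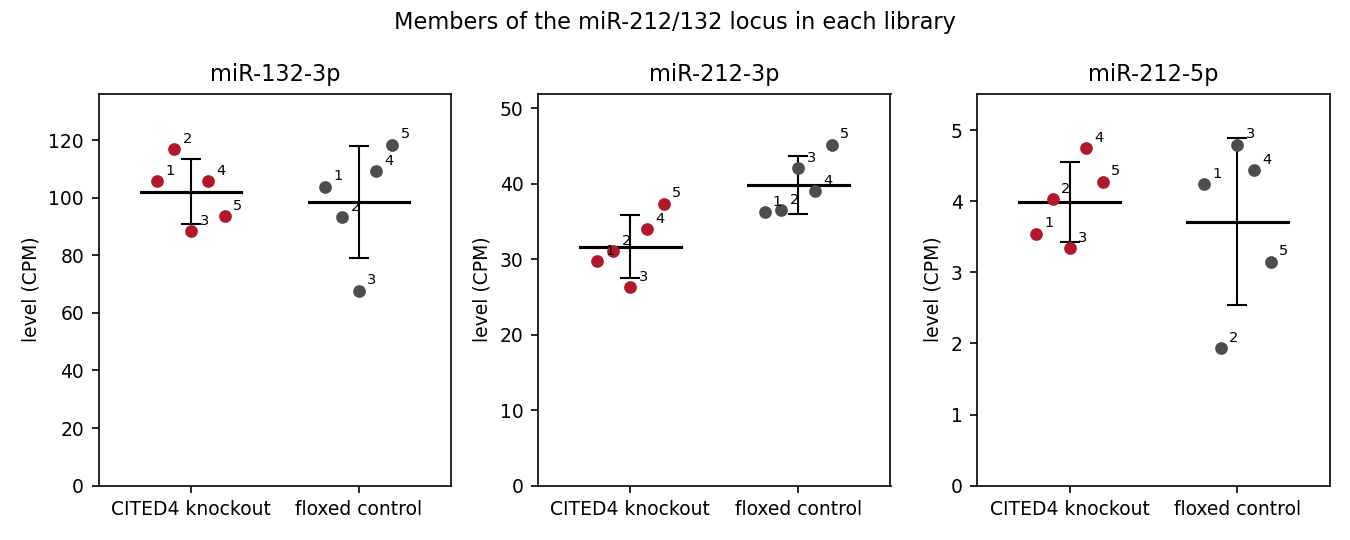
Level of each member in CPM (vertical axes start at 0) in the 5 CITED4 knockout libraries (red) and the 5 floxed control libraries (grey), with replicate numbers beside the points. Horizontal lines are means and bars are SD; the groups overlap for all 3 members, and 4 of 5 knockout libraries lie below every control for miR-212-3p.

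miR-132-5p, which sits opposite miR-132-3p in its hairpin, was at 7.23 ± 1.1 CPM in knockouts and 7.16 ± 2.17 CPM in controls (SD, n = 5 each). Its log2 fold change was 0.01 ± 0.23 (SE) (edgeR adjusted p = 0.99). In all 10 libraries miR-132-3p was above miR-212-3p, and miR-212-3p above both 5p arms. The 5p arms overlapped, and control replicate 3 had 4.56 CPM of miR-132-5p and 4.80 CPM of miR-212-5p, against the order of the other 9 libraries. Reads of different miRNAs are captured with different efficiency, so an order between miRNAs is that of their reads. By level, miR-132-3p ranked 134 to 145 among the 1139 miRNAs in knockout libraries and 134 to 157 in control libraries. miR-212-3p ranked 182 to 203 in knockout libraries and 166 to 184 in control libraries.

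Set against all tested miRNAs, the members had no difference that passed. By edgeR, 0 of the 3 passed an adjusted p of 0.05, and so did 0 of the 457 (0% called, smallest adjusted p 0.64). The count was 0 by DESeq2 too, where 45 of 1105 miRNAs had an unadjusted p under 0.05, and by limma-voom, where 23 of 457 did. At an unadjusted p under 0.05, 1 of the 3 members was counted, miR-212-3p, with the exceptions given above, where 6.35% of all tested miRNAs were (29 of 457). Those lower in knockouts, as miR-212-3p was, made up 3.5% and those higher 2.84%. The background count ran from 7 to 84 with 1 library left out. The CPM ranges of the groups did not overlap for 0 of the 3 members and for 0.656% of all tested miRNAs. The median log2 fold change over all tested miRNAs was 0.03, and the median of its absolute size was 0.24. By unadjusted p, miR-212-3p ranked 21 and miR-132-3p ranked 391 among the 457.

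**Figure D3:**
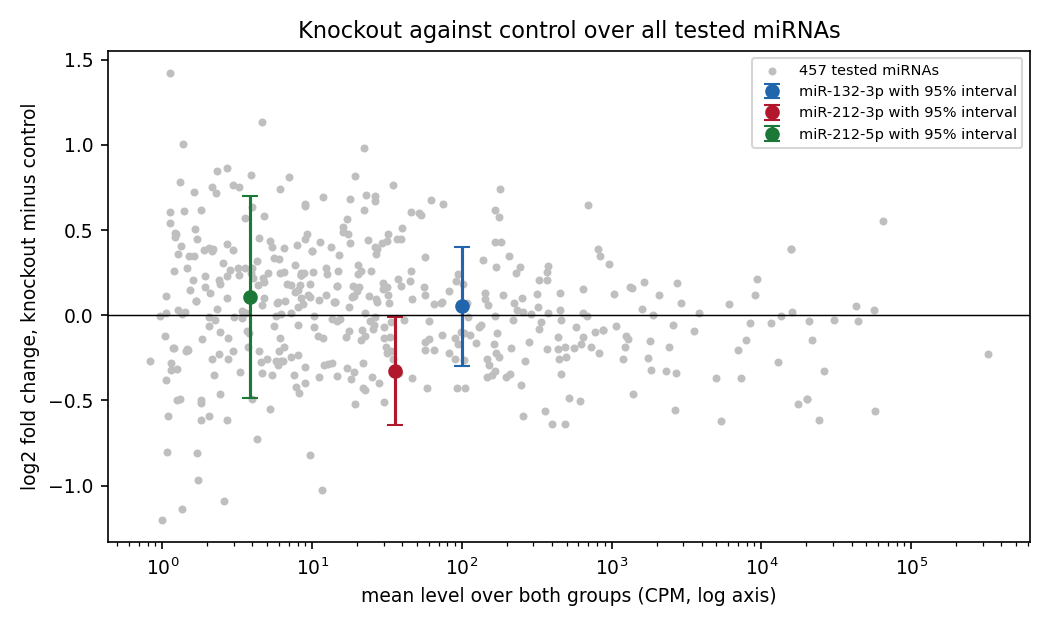
Log2 fold change of knockout over control (vertical axis) against the mean CPM of both groups (horizontal log axis) for 457 tested miRNAs in grey. Coloured points are the 3 members with 95% intervals from edgeR; the interval of miR-212-3p ends at -0.01 and those of miR-132-3p and miR-212-5p hold 0.

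Because the members are counted in the same library, the ratio of their counts does not depend on its depth or scaling factor. On the log2 scale, the 0.5 added to each count brings in some dependence on depth where counts are few. The ratio of miR-212-3p to miR-132-3p gives the make-up of the pool of reads with the shared seed. It was 0.281, 0.266, 0.297, 0.321 and 0.40 in knockout replicates 1 to 5, against 0.349, 0.392, 0.622, 0.357 and 0.382 in control replicates 1 to 5. Of the knockout libraries, 4 lay below every control, and knockout replicate 5 was above all controls but replicate 3. The mean was 0.313 ± 0.053 in knockouts and 0.420 ± 0.114 in controls (SD, n = 5 each). On the log2 scale, with 0.5 added to each count, the difference was -0.40, with a 95% interval from -0.83 to -0.03 obtained by inverting the exact permutation test. The exact two-sided permutation p was 0.048, and 0.071 when adjusted over the 3 ratios tested, so it did not pass. The ratios were chosen when the levels of some members were known from earlier results of these data. The p-values of the ratios do not account for that choice. The SD of the log2 ratio was 0.23 in knockouts and 0.34 in controls, against 0.083 and 0.089 from counting alone. Without control replicate 3 the difference was -0.25 (exact permutation p = 0.087, adjusted p = 0.13), and without knockout replicate 5 it was -0.50 (exact permutation p = 0.016, adjusted p = 0.048). With 1 library left out, the unadjusted exact permutation p was under 0.05 only without knockout replicate 5, control replicate 1 or control replicate 4, and otherwise ran from 0.063 to 0.103.

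The ratio of the miR-212 arms, 5p to 3p, had a higher mean in knockouts. It was 0.119, 0.130, 0.127, 0.140 and 0.114 in knockout replicates 1 to 5, against 0.117, 0.053, 0.114, 0.114 and 0.070 in control replicates 1 to 5. Of the knockout libraries 4 lay above every control, and the lowest controls were replicates 2 and 5, with the fewest miR-212-5p counts. The mean was 0.126 ± 0.0098 in knockouts and 0.094 ± 0.030 in controls (SD, n = 5 each). The log2 difference was 0.49, with a 95% interval from 0.025 to 1.11 (exact two-sided permutation p = 0.032, adjusted over the 3 ratios 0.071). The adjusted p was 0.048 without the pseudocount or on the linear scale, so the side of the threshold depended on that choice. Leaving out any 1 knockout library put the unadjusted exact permutation p above 0.05, at 0.071 to 0.159. Without control replicate 2 the difference was 0.30 (exact permutation p = 0.040, adjusted p = 0.095). The SD of the log2 ratio was 0.11 in knockouts, below the 0.22 from counting alone, and 0.52 in controls, against 0.27.

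The remaining ratio, miR-212-5p to miR-132-3p, was 0.039 ± 0.0057 in knockouts and 0.040 ± 0.019 in controls (SD, n = 5 each). It ran from 0.034 to 0.046 in knockouts, within the control range of 0.021 to 0.071. The log2 difference was 0.08, with a 95% interval from -0.66 to 0.79 (exact two-sided permutation p = 0.83). The 3 ratios share counts and are not separate evidence. Both ratios with an unadjusted p under 0.05 contain miR-212-3p, and the third does not.

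**Figure D4:**
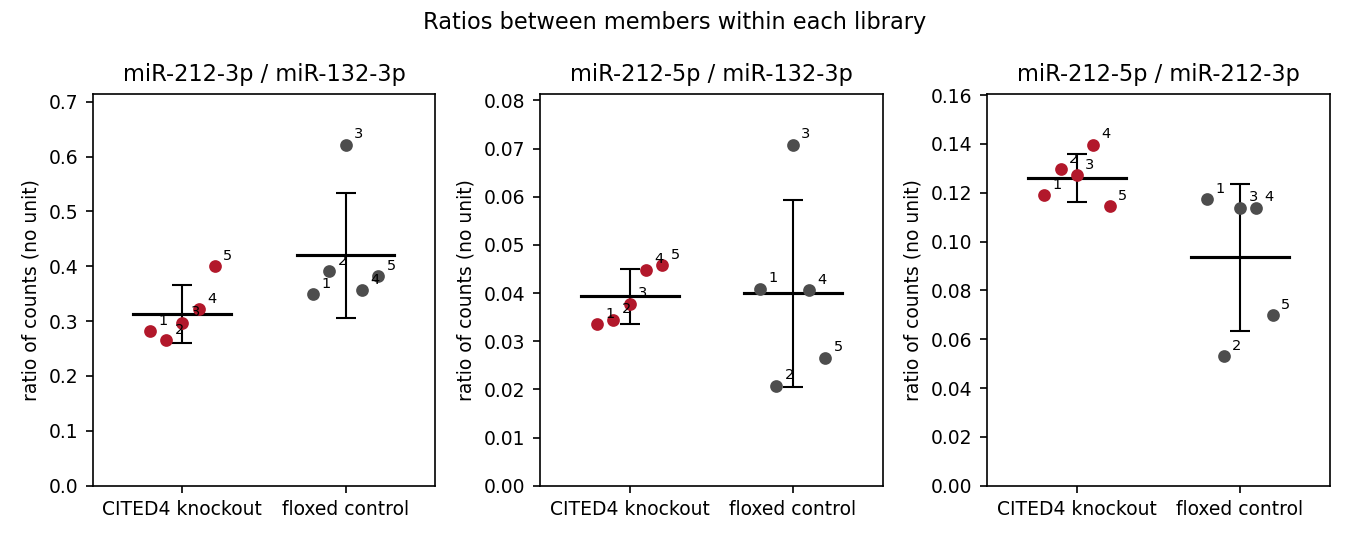
Ratios of raw counts between members within each library (vertical axes start at 0, no unit) in CITED4 knockout (red) and floxed control (grey) libraries, with replicate numbers, means (lines) and SD (bars). Control replicate 3 is at 0.622 for miR-212-3p to miR-132-3p, and control replicates 2 and 5 are the lowest for miR-212-5p to miR-212-3p.

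As shares of all reads of the locus, miR-132-3p took 70.4% ± 2.66 in knockouts and 65.6% ± 4.97 in controls. miR-212-3p took 21.9% ± 2.75 in knockouts and 27.1% ± 4.69 in controls (SD, n = 5 each). In control replicate 3 the share of miR-212-3p was 35.3% (Wilson 95% interval 32.5% to 38.3%, 360 of 1019 reads), and in the other controls it ran from 24.0% to 26.4%. The summed level of the 2 arms with the seed AACAGUC was 134 ± 12.3 CPM in knockouts and 138 ± 20.2 CPM in controls, since the abundant miR-132-3p dominates that sum.

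How far the arms of the locus varied alike was described across the 10 libraries. With 10 libraries and few counts of miR-212-5p, a low r does not show that arms vary apart. Correlations of log2 CPM were computed for the 6 pairs of the 4 arms, with permutation p values from 100000 resamples. The genotypes were pooled without removing their means, so a difference between genotypes can enter r and its p. Only the arms of miR-132 passed, with a Pearson r of 0.92 (permutation p = 4.0e-05, adjusted p = 0.00024) and a Spearman rho of 0.98 (permutation p = 2.0e-05, adjusted p = 0.00012). Their r was 0.85 without control replicates 3 and 5, the libraries farthest from the median. The arms of miR-212 had an r of 0.08 (permutation p = 0.82, adjusted p = 0.89) and a rho of 0.22 (permutation p = 0.54, adjusted p = 0.94). Without control replicates 2 and 5, which had the fewest miR-212-5p counts, their r was 0.88. miR-212-3p and miR-132-3p, which come from 1 transcript and share a seed, had an r of -0.08 (permutation p = 0.83, adjusted p = 0.89) and a rho of 0.10 (permutation p = 0.78, adjusted p = 0.94). Without control replicate 5 and knockout replicate 3, the libraries farthest from the median for that pair, their r was -0.71. An r with the farthest libraries left out is a description with no p, since that choice shapes it. The other 3 pairs had r from -0.23 to 0.05, with permutation adjusted p of 0.89. Among these, miR-212-3p and miR-132-5p had an r of 0.05 over all 10 libraries and -0.83 without control replicate 5 and knockout replicate 3. With 5 libraries in a group, no correlation was computed within a genotype.

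**Figure D5:**
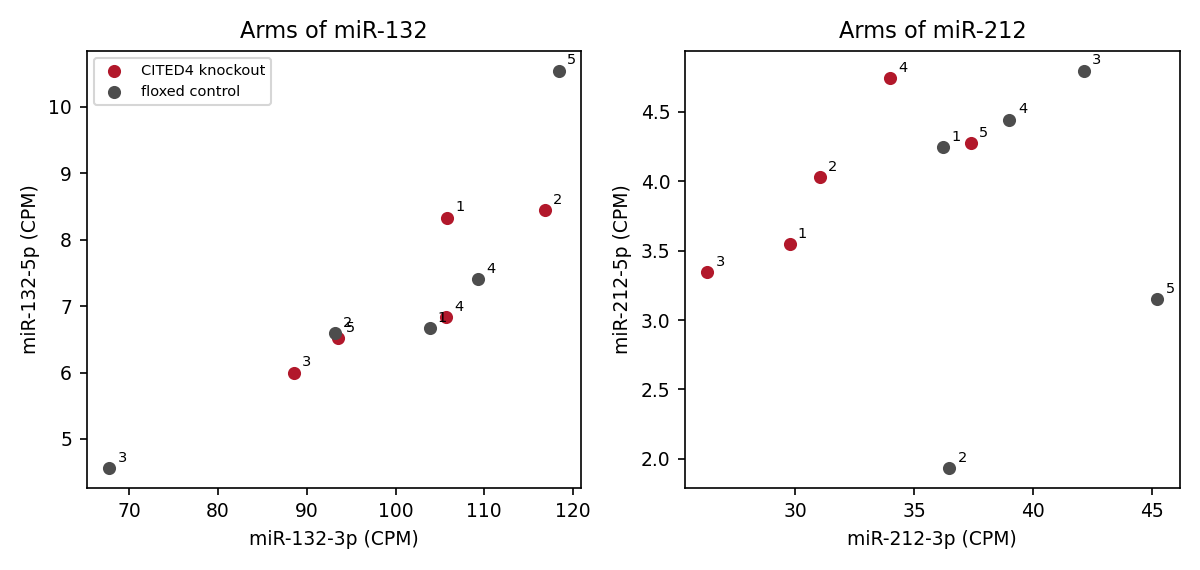
CPM of the 5p arm (vertical axes) against CPM of the 3p arm (horizontal axes) for miR-132 and miR-212 in CITED4 knockout (red) and floxed control (grey) libraries, with replicate numbers; axes do not start at 0. The arms of miR-132 lie along a line (r = 0.92), while control replicates 2 and 5 lie below the other libraries for miR-212 (r = 0.08 over all 10).

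Among the other 454 tested miRNAs, those most like each member by Pearson correlation of log2 CPM over the 10 libraries are given as a description, since the highest of 454 values is chosen. The libraries share depth and scaling between all miRNAs. Genotypes were pooled here too, so a difference between their means can enter r. For miR-132-3p they were its partner arm miR-132-5p, miR-32-3p (r = 0.88) and miR-92a-1-5p (r = 0.83). For miR-212-3p they were miR-130a-5p (r = 0.94), miR-201-5p (r = 0.76) and miR-499-3p (r = 0.75). miR-130a-5p was at 7.69 ± 1.42 CPM in knockouts and 10.2 ± 1.58 CPM in controls, with a log2 fold change of -0.40 and an unadjusted p of 0.062 in edgeR. For miR-212-5p they were miR-153-3p (r = 0.87), miR-210-5p (r = 0.81) and miR-129-2-3p (r = 0.78), each at means from 1.02 to 2.15 CPM. miR-132-5p ranked 198 in likeness to miR-212-3p and 353 in likeness to miR-212-5p.

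Other miRNAs linked to growth of the heart give the setting. Over all 457 tested miRNAs, 243 had a log2 fold change above 0 and 214 below it, with a median of 0.03. Of 14 other miRNAs linked to hypertrophy of the loaded heart, 5 had higher and 9 lower means in knockouts. Their median log2 fold change was -0.05. By edgeR 0 of them passed after adjustment, and 0 were under 0.05 before it. miR-208b-3p, encoded in the fetal myosin gene Myh7, was at 231 ± 57.7 CPM in knockouts and 181 ± 41.4 CPM in controls. miR-208a-3p, encoded in the adult myosin gene Myh6, was at 431 ± 121 CPM in knockouts and 603 ± 253 CPM in controls, and miR-21a-5p, abundant in fibroblasts, at 77278 ± 25541 CPM in knockouts and 52566 ± 28411 CPM in controls. Their unadjusted p values in edgeR were 0.11, 0.12 and 0.14. Of 14 miRNAs linked to restraint of growth or fibrosis, 2 had higher and 12 lower means, and the median was -0.35. By edgeR 0 of these passed after adjustment. Before it, 6.35% of all tested miRNAs had a p under 0.05 in either direction, and 3.5% had one and were lower in knockouts. Of the 14, 4 did, all lower in knockouts: miR-133a-3p, miR-133b-3p, miR-30a-5p and, named after its value was seen, miR-29c-3p. Their log2 fold changes were -0.46, -0.56, -0.61 and -0.56, each with an edgeR adjusted p of 0.64. miR-133a-3p and miR-133b-3p are also among the cardiomyocyte markers, whose summed ranges, given above, are mostly those of miR-1a-3p. Of 10 miRNAs abundant in nerve tissue, where miR-132 and miR-212 are also abundant, 8 were tested, 6 had higher and 2 lower means, the median was 0.21, and 0 passed at either an adjusted or an unadjusted p of 0.05 in edgeR. Their summed level ran from 716 to 1137 CPM in knockouts and from 688 to 977 CPM in controls. Among them, miR-9-5p was at 327 ± 114 CPM in knockouts and 316 ± 76.9 CPM in controls. miR-124-3p, the defining neuronal miRNA, had 0 counts in all 10 libraries, which allows up to 0.295 CPM in the knockout library and up to 0.370 CPM in the control library where this limit (3 counts) was highest.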

How the data were processed

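Small RNA of mouse heart was sequenced as 10 NEXTflex libraries, per the labels' protocols. The authors deposited raw read counts per mature miRNA and a signal table. Each deposited signal value equals the count divided by 1 size factor per library, within a relative difference of 5e-15. In all 10 libraries that factor equalled, to the digits kept, the size factor that DESeq2 gives from the raw counts. Tools listed, without roles, in the submitters' processing notes are cutadapt 1.10, STAR, Bowtie and DESeq2, with the build GRCm38. Not given in the sources used here were the annotation release, how reads matching several miRNAs were counted, and whether molecular identifiers were used.

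Counts were tested with edgeR 4.0.16 (R 4.3.3; filterByExpr, TMM factors, quasi-likelihood test, genotype as the only term) and adjusted by Benjamini-Hochberg over 457 miRNAs, which held 99.99% of counts. Standard errors are the log2 fold change divided by the square root of F. A prior count of 2 entered log2 CPM. Ratios were compared by exact permutation over 252 splits, whose smallest p is 0.0079. DESeq2 1.42.0 and limma 3.58.1 served as alternatives. Fits were tested on simulated data. Any 2 libraries of a group differed by more than sampling noise (chi-square over its degrees of freedom at least 134 in knockouts and 66.2 in controls). The members, ratios and lists were chosen with earlier results of these data known. Beside the members, the text names the other arm of the locus, miRNAs with a member's seed, the 3 most similar per member, up to 3 per list with the smallest p, and the most abundant of a marker list.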

Additional observations from a re-analysis of the deposited data

Results flagged for a closer look

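In 14 groups of 5 libraries (4 arms and 3 ratios, each in knockouts and controls), the gap of the highest or lowest library to its neighbour was set against the range of the group. In 1 of the 14 the share was above the critical value of 0.71 for 5 samples, where about 1 in 20 groups, or 0.7, is passed by chance. This was the ratio of miR-212-3p to miR-132-3p in control replicate 3, at 0.622 against 0.349 to 0.392 in the remaining controls, a gap of 0.844 of the range. That library also had the smallest raw total, 7526091 counts, and had the lowest miR-132-3p level of all 10, at 67.7 CPM. Its miR-212-3p level was 42.1 CPM, within the control range.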

How the results depend on the processing

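In all 18 alternative fits 0 miRNAs passed an adjusted p of 0.05, with smallest adjusted p from 0.15 (replicate block) to 0.99 (DESeq2). The 29 miRNAs at an unadjusted p under 0.05 became 14 with library totals only, 102 of 1105 without a filter, 18 of 276 with the stricter filter, 45 of 1105 with DESeq2 and 72 with the replicate block. With 1 library left out they ran from 7 to 84, with 8, 11 and 64 without knockout replicates 1, 2 and 4 and 84, 12, 9 and 7 without control replicates 1, 3, 4 and 5. miR-212-3p kept its direction in 19 of 19 alternatives, which reuse the same libraries and are not separate evidence. Its unadjusted p in them ran from 0.024 (exact permutation test) to 0.31 (edgeR with library totals). With 1 library left out miR-132-3p ran from -0.057 to 0.15 (reversed when control replicate 3 or knockout replicate 2 was left out) and miR-212-5p from -0.046 to 0.21 (reversed without control replicate 2). The stricter filter removed miR-212-5p, so it gave no value there. The ratio of miR-212-3p to miR-132-3p ran from -0.50 to -0.25 with 1 library left out, past the threshold without knockout replicate 5. The miR-212 arm ratio passed without a pseudocount (0.50 on the log2 scale) and as a linear ratio (0.032), with exact permutation adjusted p of 0.048 each. The deposited normalized values gave the same result as no pseudocount. A library's size factor cancels in a ratio, so they are not a further check. The ratio of miR-212-5p to miR-132-3p turned to -0.00067 on the linear scale and ran from -0.12 to 0.32 with 1 library left out. For these changes the cause was not tested. Replicate numbers are shared by the groups, but the labels do not say what they mark, so they were not taken as pairs. Deviations from the group means correlated at 0.45, 0.38, -0.08, 0.40 and -0.12 in same-number pairs 1 to 5. Pairs of different numbers were not compared, so whether the numbers mark pairs was not tested. With the replicate block miR-212-3p had an unadjusted p of 0.053 in edgeR, in place of 0.043 (adjusted 0.32), and the exact sign-flip p was 0.125 for the ratio of miR-212-3p to miR-132-3p and 0.0625 for the arm ratio, the smallest that 5 pairs allow. For both ratios a sign-flip p under 0.05 was impossible whatever the data, so this test cannot decide whether they hold under the block. By edgeR, no call after adjustment changed under the replicate block. Depth limits miR-212-5p most, at 22 to 78 counts per library.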

Other observations

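Among 111 hairpins whose 5p and 3p arms were both tested and belonged to that hairpin alone, the less abundant arm took a median of 6.89% of the summed mean CPM, with quartiles of 1.66% and 23.9%. miR-212 ranked 50 in this share, with 9.72% from its 5p arm, and miR-132 ranked 57, with 6.69% from its 5p arm. The SD of the log2 arm ratio over the 10 libraries was 0.14 for miR-132 and 0.44 for miR-212, against a median of 0.42 over the 111 hairpins.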
